A study of Mus musculus with 23 samples.

Results

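The genes described here are 31 direct transcriptional targets of the tumour suppressor p53, taken as a named list from general knowledge of the pathway and looked up by symbol among the 36793 genes of the deposited tables. All 31 matched a single gene and passed the low-count filter in each comparison. No value of these libraries enters the choice of the list itself, but the list was drawn up with earlier results of these data known. By role the members are 5 arrest genes, 6 genes of intrinsic apoptosis, 4 death receptors and adaptors, 1 secreted stress factor, 5 genes of DNA repair and nucleotide supply, 5 metabolic and redox genes, and 5 genes of feedback and signalling.

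RNA sequencing was done on cultured mouse head and neck tumour lines, on macrophages sorted from subcutaneous tumours of those lines, and on colonies grown from such macrophages. The 23 libraries fall into 8 groups of 3, except 2 for SCCVII colonies. MEER lines derive from epithelium of the mouse oropharynx and carry an active Ras; HPV-positive MEER also holds oncogenes of a human papillomavirus, HPV-negative MEER does not, and both belong to the C57/Bl6 strain. SCCVII, also spelled SSCVII in the labels, is a squamous carcinoma without HPV from C3H/HeJ mice. Macrophages were sorted as CD45+CD11b+Gr1-F4/80hi cells, each library pooling 3 to 4 mice, and HPV-negative MEER macrophage replicates are numbered 1, 2 and 4. Colonies, described as macrophage progenitor colonies, came from HPV-negative MEER and SCCVII tumours after 9 days in haematopoietic stem cell medium. MEER with and without HPV is 1 line each, so the virus and other differences between these lines cannot be told apart, and SCCVII differs from MEER in strain as well. Line replicates are aliquots, so their p-values reflect no more than the variation among these samples, and that variation may be technical.

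The p53 protein is a transcription factor that is held at a low level by the ubiquitin ligase Mdm2 and accumulates after DNA damage and other stresses. It then switches on genes that halt the cell cycle, repair DNA, adjust metabolism or start apoptosis, and also genes, Mdm2 among them, that switch it off again. The E6 oncoprotein of high-risk papillomaviruses directs p53 to degradation, a central step in epithelial transformation by these viruses.

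The binding element of p53 is built from half-sites, each with 3 purines, a C, 2 A or T bases, a G and 3 pyrimidines, a pattern that reads the same on both strands. Promoter windows from 250 bases before to 50 after a start site (RefSeq, GRCm38.p6) were at hand for 24 of the 31 members. Some genes had more than 1 window (32851 windows for 27025 genes), and a match in any of them counted. Printed stretches come from the first window with a match. A half-site stood in 8 of the 24 members (33.3%), namely Aen, Bax, Ccng1, Cdkn1a, Ei24, Polk, Rps27l and Sesn1. The share was 9.55% of 27025 genes with a window and 8.36% of all windows. A full element, with 2 half-sites at most 13 bases apart, stood only in that of Cdkn1a among the 24 (4.17%), against 20 of the 27025 genes (0.074%). Of these 8, all but Sesn1, which was not called, were lower in the HPV-positive than in the HPV-negative line. In that comparison 67.7% of the 31 members and 23.9% of all genes tested were lower. Whether members with and without a half-site differ was not tested. The stretch of Cdkn1a is printed for its full element, and those of Ccng1, Bax and Ei24, chosen after values were seen, as examples of a single half-site; capitals mark half-sites. The stretches of Cdkn1a (chr17:29090871-29090972, plus strand, from 108 to 7 bases upstream of the start), Ccng1 (chr11:40755427-40755506, minus strand, from 220 to 141 bases upstream), Bax (chr7:45467055-45467134, minus strand, from 236 to 157 bases upstream) and Ei24 (chr9:36797335-36797354, minus strand, from 20 to 1 bases upstream) read, from 5′ to 3′:
Cdkn1a: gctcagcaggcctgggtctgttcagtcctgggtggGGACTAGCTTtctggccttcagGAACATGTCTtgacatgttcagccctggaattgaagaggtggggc
Ccng1: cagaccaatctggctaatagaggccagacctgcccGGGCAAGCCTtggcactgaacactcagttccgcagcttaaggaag
Bax: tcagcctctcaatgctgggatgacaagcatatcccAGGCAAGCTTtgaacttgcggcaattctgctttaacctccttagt
Ei24: cgtgcggcccGGGCATGCCC
The 2 marked half-sites of Cdkn1a lie 12 bases apart. Only exact matches were sought, so half-sites with a mismatch are not marked. The 10 bases directly after the second marked half-site of Cdkn1a differ from the pattern only at their first base. Which of these p53 binds was not tested. A match describes letters in a window and is no measurement of binding, and a window without a match says nothing about sites elsewhere.

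Libraries held 26848759 to 47609481 expected counts, and levels are given as CPM, counts scaled to library size by TMM over all libraries. Summed CPM of 9 macrophage markers was 14000 to 23600 in sorted macrophages and 13.7 to 28.1 in the lines. Colonies were split: 13100 and 14500 in HPV-negative colony 1 and SCCVII colony 1, but 904, 59.1 and 1170 in HPV-negative colonies 2 and 3 and SCCVII colony 2. Among the 3 lines, summed epithelial markers were 403 to 634 CPM in HPV-negative MEER, 1530 to 2020 in HPV-positive MEER and 1010 to 1100 in SCCVII, where Krt5, Krt14 and Epcam had 0 counts. Summed fibroblast markers were 64.8 to 141, 3.21 to 11.0 and 2660 to 2790 CPM in the same order.

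The first question was whether p53 targets differ between a line with papillomavirus oncogenes and one without. Most were lower in the HPV-positive line. Of 31 members, 21 fell, 3 rose and 7 did not pass (edgeR quasi-likelihood test, Benjamini-Hochberg adjusted p under 0.05), so that 77.4% of members were called. Of all 14396 genes tested, 47.0% were called, 23.2% higher and 23.9% lower. The median log2 change was -0.99 over the members and -0.01 over all genes. Of the 31 members, 22 (71.0%) were called and had line groups that did not overlap, beside 44.0% of all genes tested; Dcxr and Plk2 overlapped by 1 library. Epithelial markers were higher in the same comparison (5 of 7 tested) and fibroblast markers lower (4 of 5 tested), and their part in the result was not tested.

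**Figure D1:**
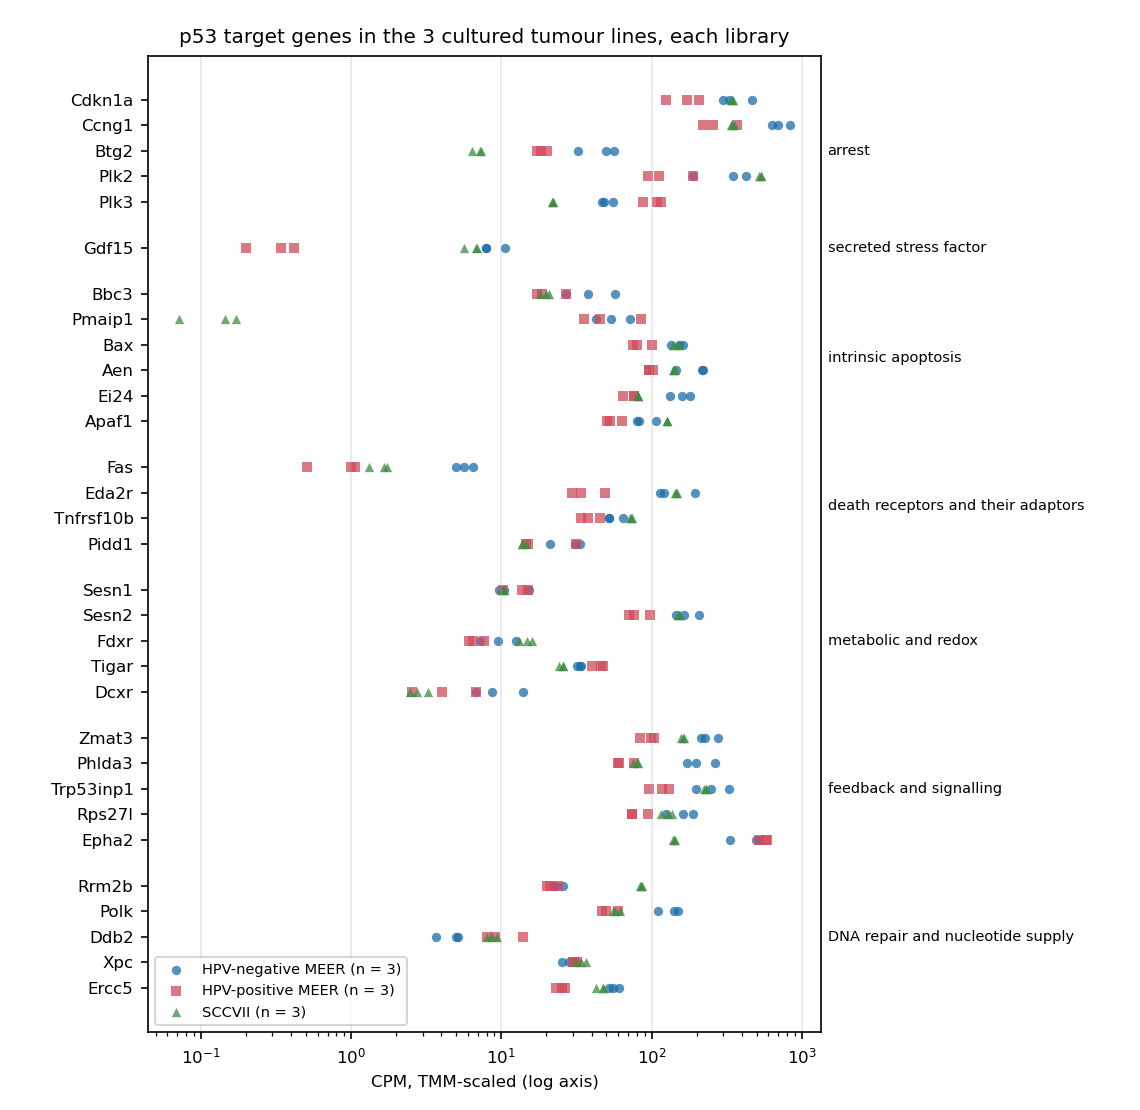
Level of each of the 31 p53 target genes in the 3 cultured tumour lines, grouped by role. Each point is a library, with CPM on a log axis. HPV-positive libraries lie left of the HPV-negative ones for most members, with Gdf15 and Fas farthest apart, while Ddb2, Plk3 and Tigar lie to the right; Pmaip1 in SCCVII lies below 1 CPM.

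Among arrest genes, 4 of 5 fell and Plk3 rose. Cdkn1a, the cyclin-dependent kinase inhibitor that is the best known p53 target, had 326, 465 and 297 CPM in the HPV-negative line and 208, 124 and 172 CPM in the HPV-positive line. Those groups did not overlap, and the log2 change was -1.12 ± 0.20 (SE, edgeR adjusted p = 0.0014). Ccng1, a cyclin that takes part in restraining p53 through Mdm2, had 635, 838 and 696 CPM against 370, 221 and 256 CPM, a log2 change of -1.37 ± 0.19 (edgeR adjusted p = 0.00022). Every HPV-positive library was below every HPV-negative one. Btg2, an antiproliferative gene that acts on mRNA decay, had 49.5, 56.1 and 32.6 CPM against 18.5, 17.4 and 20.2 CPM, again with no overlap and a log2 change of -1.31 ± 0.19 (edgeR adjusted p = 0.00028). Plk2, a polo-like kinase, fell by 1.3 ± 0.3, with 188 CPM in the lowest HPV-negative library and 190 CPM in the highest HPV-positive one. Its relative Plk3 had 55.5, 46.7 and 48.3 CPM in the HPV-negative line and 87.4, 108 and 115 CPM in the HPV-positive line, where all 3 libraries were higher. That rise was 1.03 ± 0.11 (edgeR adjusted p = 5e-05).

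Gdf15, a secreted cytokine of the TGF-beta superfamily used as a marker of cell stress, changed more than any other member. It had 7.97, 7.89 and 10.6 CPM in the HPV-negative line and 0.42, 0.344 and 0.201 CPM in the HPV-positive line, which is 27.7-fold lower. Groups lay far apart, with a log2 change of -4.79 ± 0.29 (edgeR adjusted p = 1.2e-06).

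Of the 6 genes of intrinsic apoptosis, the mitochondrial route to cell death, 5 fell. Ei24, a p53-induced protein of the endoplasmic reticulum, had 133, 180 and 160 CPM in HPV-negative libraries and 76.3, 64.5 and 76.1 CPM in HPV-positive ones, with a log2 change of -1.14 ± 0.12 (edgeR adjusted p = 4.1e-05). Aen, a nuclease that helps to degrade DNA in dying cells, had 216, 219 and 146 CPM against 95.5, 103 and 96.3 CPM, a log2 change of -0.99 ± 0.14 (edgeR adjusted p = 0.00032). Neither gene had overlapping groups. Bbc3, which encodes the BH3-only protein PUMA, had 27.1, 57.3 and 37.5 CPM against 18.6, 17.4 and 26.8 CPM, a log2 change of -0.97 ± 0.25 (edgeR adjusted p = 0.0094). Its groups were separated by a narrow gap, and without HPV-negative line replicate 2 the change was -0.64 (edgeR adjusted p = 0.036). Bax, the pore-forming executioner, changed by -0.82 ± 0.13 and Apaf1, the scaffold of the apoptosome, by -0.70 ± 0.13. Pmaip1, which encodes the BH3-only protein Noxa, was not called: 72.3, 53.7 and 42.7 CPM against 35.6, 45.7 and 85.4 CPM, overlapping groups with a log2 change of -0.04 ± 0.29.

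Of the death receptors and adaptors, the surface route to apoptosis, 3 of 4 fell. Fas, the receptor for Fas ligand, was low throughout, with 5.00, 6.49 and 5.68 CPM in the HPV-negative line and 0.51, 1.00 and 1.06 CPM in the HPV-positive line. These groups did not overlap, and the log2 change was -2.74 ± 0.30 (edgeR adjusted p = 4.8e-05). Eda2r, the receptor of ectodysplasin A2, had 114, 194 and 121 CPM against 34.1, 29.7 and 48.9 CPM, a log2 change of -1.94 ± 0.22 (edgeR adjusted p = 7.3e-05). Tnfrsf10b, the mouse receptor for the death ligand TRAIL, had 51.8, 64.6 and 52.4 CPM against 45.6, 34.1 and 37.8 CPM. Its fall was the mildest of the 3 at -0.53 ± 0.13 (edgeR adjusted p = 0.0072), and the groups of both genes were separate. Pidd1, a scaffold for caspase activation, was not called, with HPV-positive replicate 1 at 31.3 CPM inside the HPV-negative range of 21.1 to 33.2 CPM and the others at 14.5 and 15 CPM.

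Repair and nucleotide supply genes were divided. Polk, a DNA polymerase that copies past damaged bases, had 141, 151 and 110 CPM in the HPV-negative line and 46.9, 49.7 and 59.5 CPM in the HPV-positive line, with a log2 change of -1.38 ± 0.13 (edgeR adjusted p = 2.2e-05). Ercc5, an endonuclease of nucleotide excision repair, had 52.3, 60.5 and 55.6 CPM against 25.3, 23.1 and 26.6 CPM, a log2 change of -1.18 ± 0.10 (edgeR adjusted p = 1.2e-05). Both sets of groups were well apart. Ddb2, which recognises damaged DNA in chromatin, went the other way: 5.14, 3.66 and 4.96 CPM against 14.0, 8.08 and 9.11 CPM, a rise of 1.17 ± 0.24 (edgeR adjusted p = 0.0025) without overlap. Xpc, its partner in damage recognition, and Rrm2b, a subunit of ribonucleotide reductase, were not called (0.10 ± 0.11 and -0.13 ± 0.10). Ddb2 overlaps Acp2 and Plk3 overlaps Tctex1d4, each on the opposite strand, and Polk, Apaf1, Sesn2 and Rrm2b overlap unnamed gene models; since the strand setting of the counting is not given in the sources used here, reads of such neighbours could be shared.

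In the metabolic and redox group 2 fell, 1 rose and 2 were not called. Sesn2, a sestrin that restrains growth signalling through mTORC1, had 164, 207 and 145 CPM in HPV-negative and 97.9, 76.5 and 70.7 CPM in HPV-positive libraries, separate groups with a log2 change of -1.08 ± 0.16 (edgeR adjusted p = 0.00034). Tigar, a phosphatase that lowers glycolytic flux, had 34.0, 33.6 and 32.1 CPM against 47.7, 40.2 and 46.2 CPM, a small rise of 0.42 ± 0.10 (edgeR adjusted p = 0.0064) with all 3 HPV-positive libraries higher. Dcxr, a carbonyl reductase, fell by 1.15 ± 0.37 (edgeR adjusted p = 0.027). This did not pass without HPV-negative line replicate 3 (-0.78, edgeR adjusted p = 0.12), HPV-positive line replicate 2 (-1.07, 0.086) or HPV-positive line replicate 3 (-0.85, 0.073). Sesn1, the other sestrin of the list, and Fdxr, a mitochondrial electron carrier enzyme, were at 0.13 ± 0.21 and -0.54 ± 0.21 and did not pass.

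Feedback and signalling genes fell in 4 of 5 cases. Phlda3, a competitor of Akt for membrane lipids, had 173, 266 and 198 CPM in the HPV-negative line and 76.8, 60.6 and 59.5 CPM in the HPV-positive line, with a log2 change of -1.70 ± 0.17 (edgeR adjusted p = 2.6e-05). Zmat3, an RNA-binding zinc finger protein, had 213, 275 and 227 CPM against 98.9, 83.6 and 104 CPM, a log2 change of -1.33 ± 0.12 (edgeR adjusted p = 1.4e-05). Trp53inp1, a stress protein that promotes p53 activity, had 199, 327 and 247 CPM against 130, 96.7 and 118 CPM, a log2 change of -1.17 ± 0.17 (edgeR adjusted p = 0.00038). For these 3 genes no HPV-positive library reached the lowest HPV-negative one. Rps27l, a ribosomal protein paralogue, fell by 0.98 ± 0.16, while Epha2, an ephrin receptor kinase, was not called (0.31 ± 0.15) at 334 to 523 CPM against 523 to 591 CPM.

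Levels between genes can be compared per transcript length, in the deposited TPM, in which counts are divided by transcript length. On that scale Rps27l was the highest member in all 3 lines, at 700 ± 115, 396 ± 43.2 and 517 ± 31.4 TPM (SD, n = 3) for HPV-negative MEER, then HPV-positive MEER, then SCCVII. Cdkn1a followed among the 4 highest, at 382 ± 71.8, 194 ± 55.0 and 333 ± 3.16 TPM (SD, n = 3). The lowest members were Ddb2 at 4.79 TPM in the HPV-negative line, Gdf15 at 0.523 TPM in the HPV-positive line and Pmaip1 at 0.0867 TPM in SCCVII. By mean CPM, 19 members were highest in the HPV-negative line, 5 in the HPV-positive line and 7 in SCCVII, and 20 were lowest in the HPV-positive line.

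A second list of 20 p53 targets, not used above, was read beside the members; 19 could be tested. In the HPV-positive against the HPV-negative line 15 of these fell and 2 rose, beside 23.9% of all genes lower and 23.2% higher. Their median log2 change was -0.77, against -0.01 over all genes. Mdm2 had 3310, 4050 and 2760 CPM in the HPV-negative line, 207, 160 and 199 CPM in the HPV-positive line and 416, 419 and 411 CPM in SCCVII, so the HPV-negative line stood far above both others. From HPV-negative to HPV-positive it fell by 4.17 ± 0.17 (edgeR adjusted p = 8.5e-08). Next came Zfp365 (-2.37 ± 0.20) and Cd82 (-2.27 ± 0.24), while Ccng2 and Steap3 rose by 0.86 ± 0.20 and 0.79 ± 0.20. Trp53 itself, which encodes p53, had 238, 289 and 258 CPM against 213, 213 and 222 CPM, a small fall of 0.29 ± 0.09 (edgeR adjusted p = 0.025). Of 18 p53 regulators, 7 rose and 3 fell, beside 47.0% of all genes called. The largest rises were of the kinase Hipk2 (1.56 ± 0.15), of Cdkn2a, whose Arf product inhibits Mdm2 (1.37 ± 0.25), and of the checkpoint kinase Chek1 (1.29 ± 0.19), and the largest fall was of the p53 relative Trp63 (-5.76 ± 0.95), at 0.856, 2.36 and 6.39 CPM against 0.12, 0.0573 and 0 CPM.

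SCCVII, an HPV-negative line of another strain, was also lower than HPV-negative MEER for more members than it was higher. Of 31 members 17 fell, 3 rose and 11 were not called, beside 58.8% of all genes called, 27.2% higher and 31.6% lower; the median log2 change was -0.49, against -0.06 over all genes. This comparison and the previous one share the HPV-negative libraries. Pmaip1 had 0.171, 0.145 and 0.0714 CPM in SCCVII, 13 counts over the 3 libraries, against 42.7 to 72.3 CPM in HPV-negative MEER, a 441-fold difference between separate groups (log2 change -8.78 ± 0.49, edgeR adjusted p = 2.5e-07). Btg2 had 7.37, 6.37 and 7.25 CPM, below all HPV-negative libraries, and fell by 2.82 ± 0.20. Fas (1.74, 1.65 and 1.32 CPM) and Dcxr (2.48, 2.75 and 3.25 CPM) also lay below all HPV-negative libraries with log2 changes of -1.96 ± 0.28 and -1.90 ± 0.38.

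Other members were higher in SCCVII or close to HPV-negative MEER. Rrm2b had 85.7, 83.2 and 86.6 CPM in SCCVII against 22.1 to 25.7 CPM, a rise of 1.75 ± 0.10 (edgeR adjusted p = 2.6e-07) with no overlap. Ddb2 (8.09, 8.62 and 9.37 CPM) and Apaf1 (126, 127 and 126 CPM) rose by 0.82 ± 0.24 and 0.39 ± 0.13. Cdkn1a, at 342, 346 and 337 CPM, lay inside the HPV-negative range and changed by -0.18 ± 0.20, and Eda2r by -0.07 ± 0.21; neither was called. Calls of Apaf1, Ddb2 and Rps27l were each lost on leaving out at least 1 library: Apaf1 without HPV-negative line replicate 1 (edgeR adjusted p = 0.065) or any SCCVII library (0.053 to 0.055), Ddb2 without HPV-negative line replicate 2 (0.051), and Rps27l without HPV-negative line replicate 2 (0.17) or 3 (0.096) or any SCCVII library (0.062 to 0.14). Rps27l moved from -0.42 to -0.27 without HPV-negative line replicate 2.

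Against the HPV-positive line, SCCVII was higher for 16 members and lower for 5, with 10 not called; 64.0% of all genes were called, 30.0% higher and 34.1% lower, and the medians were 0.44 and -0.05. Both earlier comparisons share libraries with this one. Gdf15, at 5.61, 6.86 and 6.78 CPM in SCCVII, was 18.8-fold above the HPV-positive line (log2 change 4.23 ± 0.29, edgeR adjusted p = 7e-07), with groups far apart. Plk2 (517, 533 and 532 CPM) rose by 1.92 ± 0.30, Rrm2b by 1.88 ± 0.10 and Eda2r (145, 144 and 148 CPM) by 1.87 ± 0.22, all without overlap. Lower members were Pmaip1 (-8.75 ± 0.49), Plk3 (21.6, 22.2 and 22.1 CPM, -2.32 ± 0.12), Epha2 (142, 143 and 140 CPM, -2.08 ± 0.16), Btg2 (-1.5 ± 0.19) and Tigar (-0.91 ± 0.10). The Aen call was lost without HPV-positive line replicate 3 (edgeR adjusted p = 0.053) or SCCVII line replicate 1 (0.051), and that of Fas without HPV-positive line replicate 1 (0.084), SCCVII line replicate 1 (0.11) or SCCVII line replicate 2 (0.095).

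Of the 19 other targets tested in the lines, 5 rose and 11 fell in SCCVII against the HPV-negative line, and 10 rose and 5 fell against the HPV-positive line. Of all genes tested, 58.8% were called in the former comparison (27.2% higher, 31.6% lower) and 64.0% in the latter (30.0% higher, 34.1% lower). The log2 change of Mdm2 in SCCVII was -3.12 ± 0.16 against the HPV-negative line and 1.05 ± 0.15 against the HPV-positive line. Perp, a p53 target of desmosomes, had 0 counts in all 3 SCCVII libraries, at least 8090-fold lower than in the HPV-negative line (211 to 267 CPM) and at least 5300-fold lower than in the HPV-positive line (147 to 172 CPM), with the floor set at 3 counts over the group. Cdkn2a was at 0, 0 and 0.0357 CPM in SCCVII, against 45.0 to 85.5 and 132 to 213 CPM in the MEER lines. Trp53 was not called in either comparison (-0.18 ± 0.09 and 0.11 ± 0.09).

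In tumour macrophages the same genes were compared between HPV-positive and HPV-negative MEER tumours. Here 9 members rose, 7 fell and 15 were not called, near the share for all genes, of which 48.7% were called (22.8% higher and 25.9% lower); median log2 changes were -0.09 and -0.05. Of the arrest genes 4 of 5 rose, whereas in the death receptor group none rose and 2 of 4 fell. The calls of those 2, Fas and Tnfrsf10b, were each lost on leaving out single libraries, and roles were not compared by a test. In bulk samples like these, fewer cells of a type and less RNA per cell cannot be told apart. With all 23 libraries in 1 fit, 10 members were called, 7 higher and 3 lower, and 3708 of all genes instead of 6853. Summed epithelial markers were 440 to 568 CPM in HPV-positive macrophages and 77.0 to 154 CPM in HPV-negative ones, with 3 of 6 tested markers higher, and their part in the result was not tested. Most of that sum was Cdh1, at 464, 366 and 497 CPM against 66.5, 50.7 and 44.5 CPM, while Krt8 (22.0 to 27.3 against 13.4 to 59.0 CPM) and Krt18 (26.8 to 31.6 against 10.6 to 39.8 CPM) overlapped. HPV-negative macrophage replicate 4 stood apart from replicates 1 and 2, with Krt8 at 59.0 CPM against 20.8 and 13.4 CPM and Col1a1 at 30.2 CPM against 4.80 and 4.29 CPM.

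**Figure D2:**
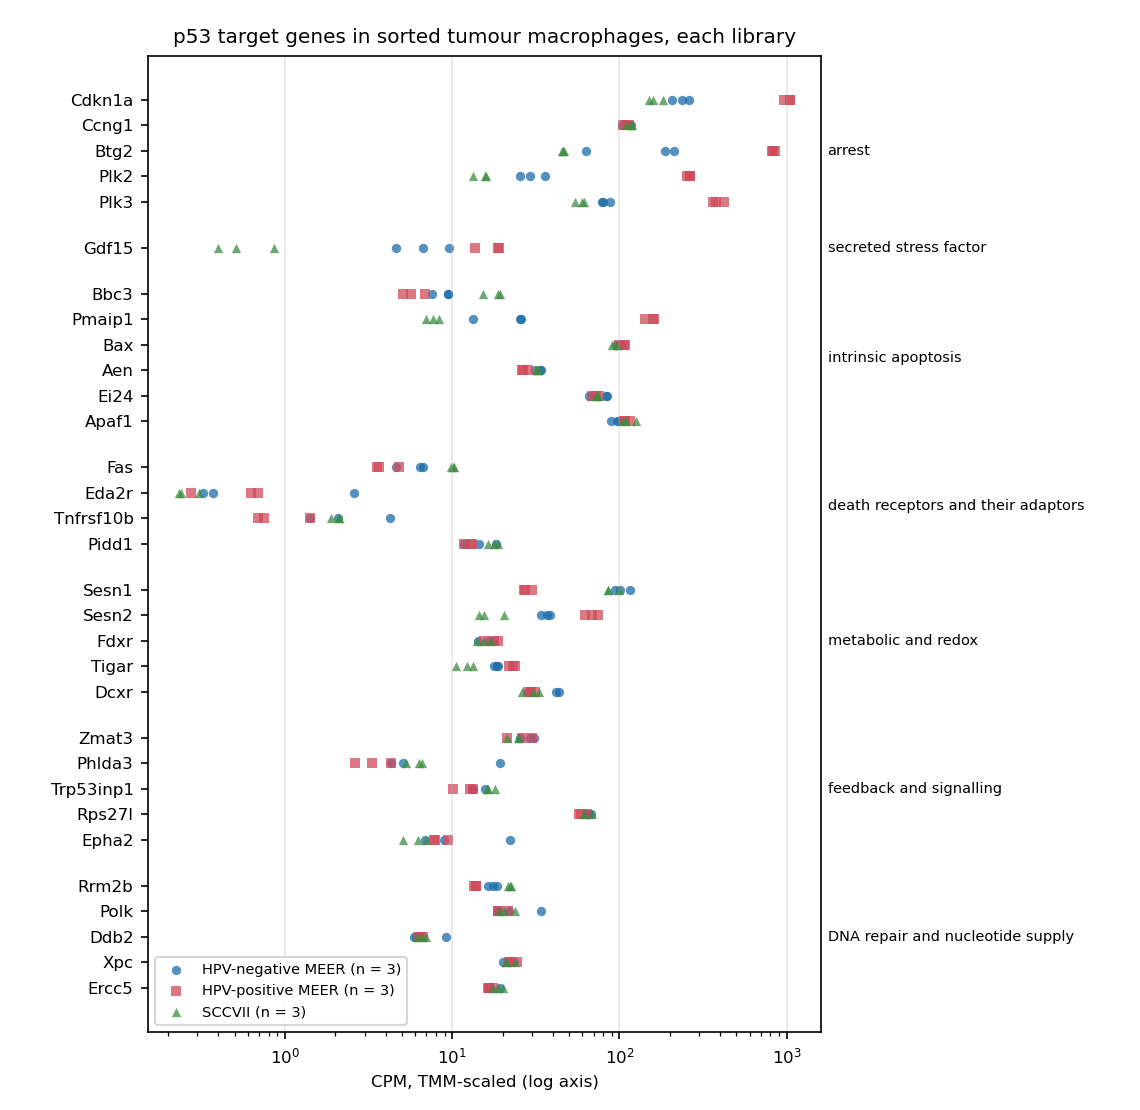
Level of each of the 31 p53 target genes in macrophages sorted from tumours of the 3 models, grouped by role. Each point is a library, with CPM on a log axis. Cdkn1a, Btg2, Plk2, Plk3 and Pmaip1 are highest in the HPV-positive libraries, and 1 HPV-negative library, replicate 4, lies apart for Phlda3, Eda2r, Tnfrsf10b and Epha2.

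Plk2 had 266, 266 and 253 CPM in HPV-positive macrophages and 29.0, 36.0 and 25.3 CPM in HPV-negative ones, an 8.86-fold rise without overlap (log2 change 3.15 ± 0.12, edgeR adjusted p = 2.9e-07). Pmaip1 had 159, 142 and 160 CPM against 25.4, 25.8 and 13.3 CPM (2.87 ± 0.21, edgeR adjusted p = 7.5e-06). Btg2 reached 829, 815 and 851 CPM against 212, 188 and 63.5 CPM (2.46 ± 0.35, edgeR adjusted p = 0.00039). In all 3 genes the HPV-positive libraries formed a tight high group, and replicate 4 was the lowest HPV-negative library. Plk3 had 423, 364 and 376 CPM against 87.9, 78.8 and 80.1 CPM (2.26 ± 0.08, edgeR adjusted p = 1.8e-07), and Cdkn1a had 1050, 961 and 1040 CPM against 238, 260 and 205 CPM (2.15 ± 0.10, edgeR adjusted p = 9.4e-07). With 736 ± 36.8 TPM (SD, n = 3), Cdkn1a was the highest member per length in HPV-positive macrophages, where Rps27l ranked 4. Gdf15 rose by 1.33 ± 0.28, from 4.60 to 9.55 CPM up to 13.7 to 19.0 CPM, and Sesn2, Tigar and Apaf1 by 0.94 ± 0.12, 0.35 ± 0.09 and 0.23 ± 0.07. Ccng1, at 104 to 118 CPM in all 6 libraries, was not called (-0.01 ± 0.06).

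Among those that fell, Sesn1 had 27.3, 30.1 and 26.7 CPM in HPV-positive macrophages against 101, 115 and 94.5 CPM, a clear separation (log2 change -1.86 ± 0.09, edgeR adjusted p = 1.1e-06), while its relative Sesn2 rose. Phlda3 had 2.63, 4.29 and 3.33 CPM against 4.31, 5.07 and 19.2 CPM (-1.46 ± 0.52, edgeR adjusted p = 0.043). Tnfrsf10b had 0.691, 1.41 and 0.745 CPM against 1.42, 2.08 and 4.24 CPM (-1.43 ± 0.44, edgeR adjusted p = 0.023). Both differences rested largely on HPV-negative replicate 4, the highest library for each gene: without it Phlda3 was at -0.43 (edgeR adjusted p = 0.12) and Tnfrsf10b at -0.87 (0.055). Bbc3 had 5.07, 5.68 and 6.87 CPM against 9.50, 7.59 and 9.40 CPM (-0.56 ± 0.16, edgeR adjusted p = 0.015), lower in all 3 HPV-positive libraries. Fas (-0.54 ± 0.18), Rrm2b (-0.33 ± 0.07) and Aen (-0.26 ± 0.06) also fell, Fas with overlapping groups. Leaving out a single HPV-positive library also ended the calls of Phlda3 (replicates 1, 2 and 3, edgeR adjusted p = 0.13, 0.065 and 0.11), Tnfrsf10b (replicates 1 and 3, 0.078 and 0.08), Bbc3 (replicate 1, 0.053), Apaf1 (replicates 1 and 3, 0.095 and 0.060) and Fas (replicates 2 and 3, 0.093 and 0.11). The same happened for Apaf1 without HPV-negative macrophage replicate 4 (0.061) and for Fas without HPV-negative macrophage replicate 1 (0.091) or 2 (0.095).

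Mdm2 in macrophages was not called between HPV-positive and HPV-negative tumours (104, 103 and 105 CPM against 114, 85.7 and 232 CPM), and Trp53 fell by 0.32 ± 0.05. Of the 18 other targets tested 4 rose and 5 fell, near the share of all genes, of which 48.7% were called (22.8% higher, 25.9% lower). Medians were -0.32 and -0.05 over the list and over all genes. Gadd45a, a growth arrest gene, had 36, 43 and 40.9 CPM in HPV-positive against 6.29, 6.32 and 10.7 CPM in HPV-negative macrophages, separate groups with a log2 change of 2.39 ± 0.19. Ddit4, an inhibitor of mTORC1 signalling, rose by 1.97 ± 0.24, and Steap3, a metalloreductase, changed by -1.65 ± 0.08.

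The change with HPV status differed between lines and macrophages for most members. In 1 fit over the 18 libraries, the line change minus the macrophage change was lower than 0 for 19 of 31 members and higher for 2, while 41.0% of all genes were called, 21.6% higher and 19.4% lower. Its median was -0.93 over the members and 0.03 over all genes. By the separate tests, 6 members fell in the HPV-positive line and rose in HPV-positive macrophages (Apaf1, Btg2, Cdkn1a, Gdf15, Plk2 and Sesn2). Another 5 fell in both (Aen, Bbc3, Fas, Phlda3 and Tnfrsf10b), 10 fell in the line and were not called in macrophages, and Plk3 and Tigar rose in both. Of the 12729 genes tested in both comparisons, 5.36% were lower in the line and higher in macrophages, 6.25% lower in both, 10.9% lower in the line and not called in macrophages, and 5.43% higher in both; for the members these shares were 19.4%, 16.1%, 32.3% and 6.45%. The difference was -6.13 ± 0.44 for Gdf15, -4.45 ± 0.37 for Plk2, -3.78 ± 0.42 for Btg2 and -3.27 ± 0.25 for Cdkn1a. For Bbc3, Phlda3 and Tnfrsf10b, which fell in both, the difference was not called (-0.42 ± 0.33, -0.26 ± 0.57 and 0.90 ± 0.43). Fdxr, called at -0.69, lost the call without HPV-negative line replicate 3 (-0.45, edgeR adjusted p = 0.10), HPV-positive line replicate 2 (0.072) or 3 (0.076), HPV-negative macrophage replicate 2 (0.082) or 4 (0.055), or HPV-positive macrophage replicate 1 (0.083) or 3 (0.066).

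**Figure D3:**
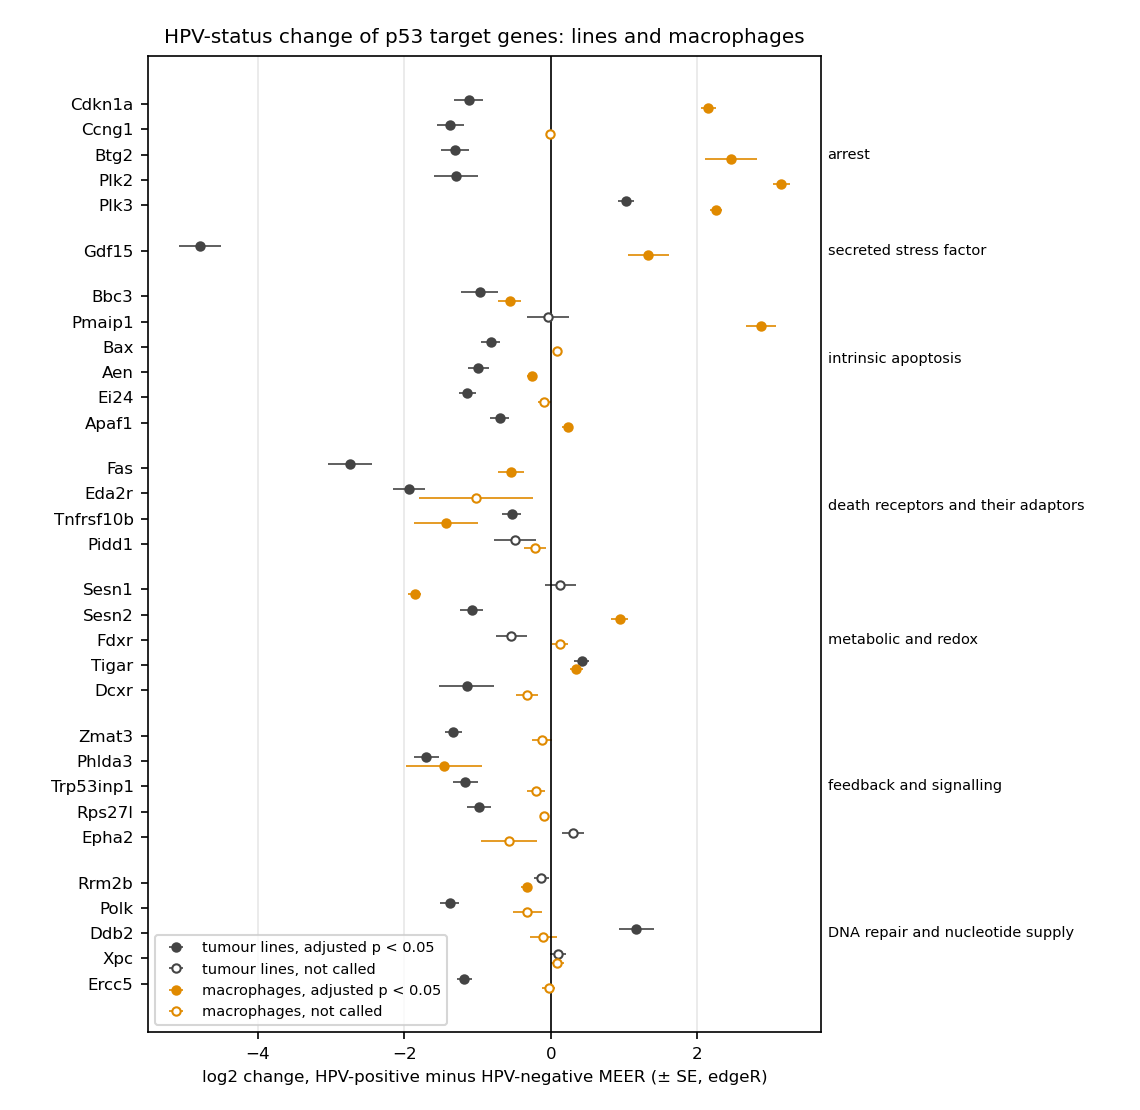
The log2 change from HPV-negative to HPV-positive MEER for each p53 target gene, in lines (grey) and in sorted macrophages (orange). Bars are 1 SE, derived from the F statistic of the edgeR test, and filled points mark adjusted p under 0.05. Gdf15, Plk2, Btg2 and Cdkn1a lie left of 0 in lines and right of 0 in macrophages, whereas Plk3 lies right of 0 in both.

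SCCVII macrophages were compared with both MEER kinds. Against HPV-negative macrophages 4 members rose and 9 fell, beside 39.2% of all genes called (18.7% higher, 20.5% lower), with medians of -0.21 and -0.02. T cell markers were lower in the same comparison (6 of 6, summed CPM 4.46 to 11.6 against 37.5 to 68.7), as were neutrophil markers (3 of 3 tested, 36.1 to 36.8 against 43.5 to 62.4), and their part in the result was not tested. Most of the neutrophil sum was Csf3r, at 35.9, 36.5 and 36.3 CPM against 60.3, 54.7 and 38.1 CPM, while Ly6g had 0 counts in both groups. Gdf15 had 0.856, 0.397 and 0.512 CPM in SCCVII macrophages against 4.60 to 9.55 CPM, 11.9-fold lower and without overlap (log2 change -3.57 ± 0.35, edgeR adjusted p = 5.5e-05). Btg2, at 46.1, 45.5 and 46.5 CPM, changed by -1.76 ± 0.35, Pmaip1, at 7.02, 8.33 and 7.72 CPM, by -1.5 ± 0.22 and Sesn2, at 20.4, 14.4 and 15.6 CPM, by -1.13 ± 0.13. Each of these 3 lay below all HPV-negative libraries. Bbc3 (15.2, 18.9 and 19.4 CPM) and Fas (10.2, 10.1 and 9.83 CPM) lay above all of them and rose by 0.99 ± 0.15 and 0.74 ± 0.17, with smaller rises of Rrm2b (0.32 ± 0.07) and Apaf1 (0.23 ± 0.07). Epha2 fell by 1.08 ± 0.38 with overlapping groups. Its call was lost without HPV-negative macrophage replicate 4 (-0.39, edgeR adjusted p = 0.097) or any SCCVII library (0.090 to 0.15), and that of Apaf1 without HPV-negative macrophage replicate 2 (0.065) or 4 (0.066) or SCCVII macrophage replicate 1 (0.11) or 2 (0.058). Apaf1 stood at 0.16 without SCCVII macrophage replicate 1.

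Against HPV-positive macrophages 7 members were higher in SCCVII and 9 lower, beside 63.2% of all genes called (32.2% higher, 30.9% lower), with medians of -0.02 and 0.01. Lower too were T cell markers (6 of 6, against 41.7 to 65.8 CPM in HPV-positive macrophages), neutrophil markers (3 of 3 tested, against 62.7 to 75.5 CPM) and epithelial markers (4 of 6 tested, 106 to 129 against 440 to 568 CPM), and their part was not tested. Csf3r again made up most of the neutrophil sum, with 71.9, 57.8 and 61.2 CPM in HPV-positive macrophages. The falls were large: Gdf15 was 29.9-fold lower, Pmaip1 20.6-fold, Btg2 18.6-fold and Plk2 (15.7, 13.4 and 16 CPM) 18-fold, with log2 changes from -4.90 ± 0.35 to -4.17 ± 0.13. Sesn1 rose by 1.64 ± 0.09, at 85.3, 99.5 and 85.7 CPM, Bbc3 by 1.56 ± 0.16, Fas by 1.28 ± 0.18 and Rrm2b by 0.65 ± 0.07. None of these groups overlapped. The comparison shares libraries with the earlier ones, so the extreme place of HPV-positive macrophages for Plk2, Btg2 and Pmaip1 enters both. Calls of Bax and Pidd1, both under 0.5 on the log2 scale, were lost on leaving out single libraries: Bax without HPV-positive macrophage replicate 1 (edgeR adjusted p = 0.064) or 2 (0.061) or SCCVII macrophage replicate 1 (0.071), and Pidd1 without any HPV-positive library (0.052 to 0.084) or SCCVII macrophage replicate 2 (0.068) or 3 (0.083).

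Between macrophages and the line of the same model, members were mostly lower in macrophages in HPV-negative MEER and SCCVII. In HPV-positive MEER they were divided, at 48.4% lower and 38.7% higher, and with RLE size factors 13 fell and 12 rose. In HPV-negative MEER 22 fell and 6 rose (76.1% of all genes called, 38.7% higher and 37.4% lower), in HPV-positive MEER 15 fell and 12 rose (78.8%, 39.6% and 39.1%), and in SCCVII 19 fell and 6 rose (73.0%, 37.4% and 35.5%). Member medians were -0.91, -0.26 and -0.92, against 0.01, 0 and 0 over all genes. In all 3 models 13 members fell (41.9%, beside 20.8% of the 15835 genes tested in all 3 models), with Eda2r the farthest. It had 114 to 194, 29.7 to 48.9 and 144 to 148 CPM in the lines and 0.324 to 2.60, 0.276 to 0.693 and 0.232 to 0.307 CPM in the macrophages of the same models. The ranges were far apart, with log2 changes of -6.87 ± 0.50, -5.95 ± 0.55 and -8.98 ± 0.60. Epha2 changed by -5.03 ± 0.34, -5.90 ± 0.36 and -4.41 ± 0.34, Phlda3 by -4.35 ± 0.43, -4.09 ± 0.45 and -3.57 ± 0.42, and Tnfrsf10b by -4.31 ± 0.29, -5.21 ± 0.33 and -5.02 ± 0.30. In SCCVII Plk2 also belonged to the largest falls (-5.00 ± 0.30).

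In all 3 models 4 members rose, namely Btg2, Dcxr, Plk3 and Sesn1 (12.9%, beside 24.5% of genes). Sesn1 rose by 3.24 ± 0.17, 1.27 ± 0.16 and 3.26 ± 0.17 in the order above, Dcxr by 2.06 ± 0.30, 2.91 ± 0.31 and 3.54 ± 0.33, and Btg2 by 1.87 ± 0.30, 5.64 ± 0.35 and 2.85 ± 0.32. Fdxr rose in both MEER models (0.85 ± 0.17 in HPV-negative and 1.53 ± 0.18 in HPV-positive). Pmaip1 rose in HPV-positive MEER (1.64 ± 0.28) and in SCCVII (5.95 ± 0.51), where its line level was near 0, and changed by -1.27 ± 0.28 in HPV-negative MEER. Gdf15 (5.90 ± 0.36) and Cdkn1a (2.77 ± 0.18) rose in HPV-positive MEER and in neither other model. Cdkn1a fell in HPV-negative MEER (-0.51 ± 0.17), a call lost without HPV-negative line replicate 2 (-0.29, edgeR adjusted p = 0.12) or HPV-negative macrophage replicate 4 (0.062). Ddb2 in HPV-positive MEER (-0.52 ± 0.22) went to -0.24 without HPV-positive line replicate 1 (edgeR adjusted p = 0.27) and also lost its call without any HPV-positive macrophage library (0.068 to 0.091). Xpc in both MEER models, under 0.3 on the log2 scale, lost its call without HPV-negative line replicate 3 (-0.18, edgeR adjusted p = 0.12), HPV-negative macrophage replicate 2 (0.11), HPV-positive line replicate 3 (0.069) or HPV-positive macrophage replicate 1 (0.076) or 3 (0.087).

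Colonies were compared with the sorted macrophages of the same model. In HPV-negative MEER 13 members were higher in colonies and 7 lower, beside 62.7% of all genes called (34.0% higher, 28.7% lower), and in SCCVII 16 were higher and 6 lower, beside 51.9% (29.7% higher, 22.3% lower). Median log2 changes were 0.16 and 0.59 over the members, against 0.02 and 0.07 over all genes. In both models 10 members rose (Aen, Ccng1, Eda2r, Epha2, Ercc5, Phlda3, Plk2, Tnfrsf10b, Trp53inp1 and Zmat3), 3 fell (Apaf1, Btg2 and Sesn1), and Cdkn1a and Gdf15 were called in opposite directions. The shares rising and falling in both were 32.3% and 9.68% of members, beside 19.7% and 13.9% of the 16238 genes tested in both models. The HPV-negative colony libraries form a deposited table of their own, so table and group cannot be told apart there. A further fit left out the 3 colony libraries low in macrophage markers, a choice made after seeing the data. It leaves 1 colony library per model, whose spread is taken from the macrophages, so counts of members called are not given for it. Fibroblast markers were at 360 to 1270 and 2780 to 4090 CPM in HPV-negative and SCCVII colonies, against 13.2 to 75 and 13.7 to 15.6 CPM in macrophages. Epithelial markers were at 370 to 496 and 213 to 265 CPM, against 77.0 to 154 and 106 to 129 CPM. Of the 8 epithelial markers 6 rose and 1 fell in HPV-negative colonies (median log2 change 3.39), and 3 rose and 2 fell in SCCVII colonies (median -2.0, opposite in sign to the change of the sum). The part of both marker lists in the result was not tested.

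Eda2r had 13.9, 30.0 and 37.4 CPM in HPV-negative colonies 1, 2 and 3 and 13.9 and 24.9 CPM in SCCVII colonies 1 and 2, all far above the highest macrophage library of these models, at 2.60 CPM. Its log2 changes were 4.58 ± 0.80 (edgeR adjusted p = 0.0013) and 6.21 ± 0.92 (edgeR adjusted p = 0.00058). Phlda3 had 82.9, 131 and 136 CPM and 138 and 165 CPM, against at most 19.2 CPM in macrophages, with rises of 3.59 ± 0.55 and 4.64 ± 0.60. Tnfrsf10b had 19.6, 28.2 and 28.7 CPM and 52.0 and 87.5 CPM against at most 4.24 CPM (3.27 ± 0.39 and 5.10 ± 0.44), and Epha2 had 133, 115 and 109 CPM and 57.6 and 120 CPM against at most 22.1 CPM (3.22 ± 0.47 and 3.87 ± 0.50). Colony 1 of each model, the library with a macrophage-like marker sum, was far above macrophages for all 4 genes. Without the 3 low-marker libraries the rises were 3.76 and 5.70 for Eda2r, 3.23 and 4.48 for Phlda3, 3.03 and 4.65 for Tnfrsf10b and 3.50 and 3.22 for Epha2, with edgeR adjusted p from 0.00024 to 0.014.

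**Figure D4:**
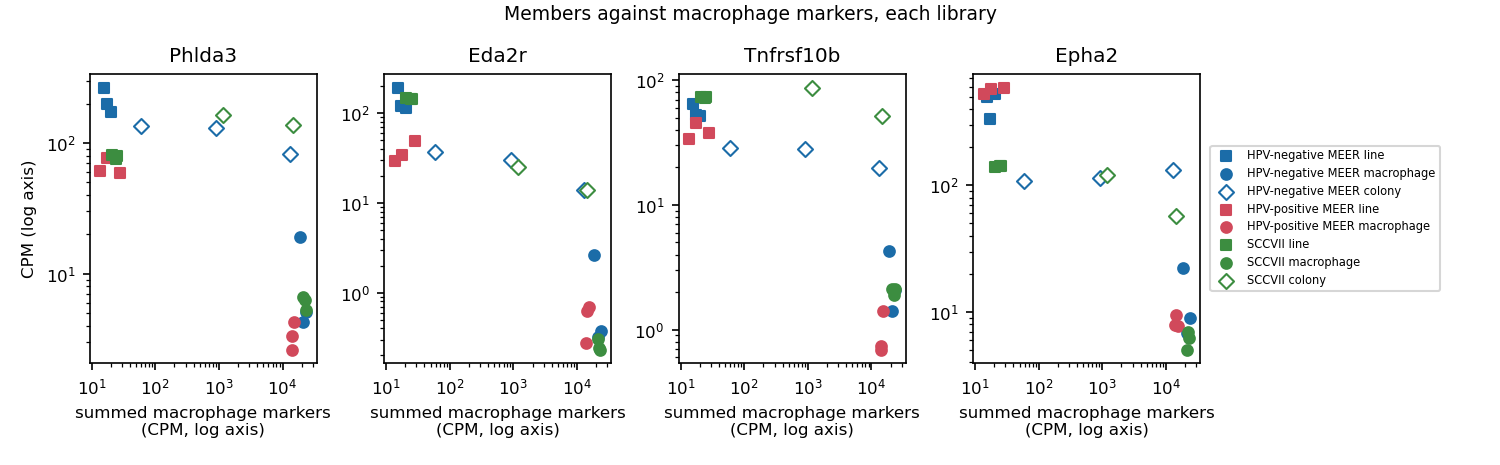
CPM of Phlda3, Eda2r, Tnfrsf10b and Epha2 (vertical, log axis) against the summed CPM of 9 macrophage markers (horizontal, log axis), each point a library. Open diamonds are colonies, and those with a marker sum of 13100 and 14500 CPM still lie above every sorted macrophage library (circles) at the same sum, while lines (squares) lie at the far left.

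Lower in colonies of both models were Btg2 (28.8 to 29.4 CPM and 6.24 to 10.7 CPM, log2 changes -2.42 ± 0.39 and -2.45 ± 0.47), Sesn1 (62.0 to 76.0 and 13.6 to 16.7 CPM, -0.56 ± 0.14 and -2.58 ± 0.17) and Apaf1 (-0.82 ± 0.16 and -1.35 ± 0.19). In HPV-negative colonies alone the log2 change was -2.39 ± 0.57 for Gdf15, -1.77 ± 0.25 for Plk3 and -1.63 ± 0.33 for Dcxr. In SCCVII colonies alone it was -1.71 ± 0.39 for Pidd1 and -1.57 ± 0.41 for Bbc3; whether these changes differ between the models was not tested. Cdkn1a had 160, 115 and 126 CPM in HPV-negative colonies (-0.82 ± 0.24) and 207 and 364 CPM in SCCVII colonies (0.80 ± 0.26). Neither Cdkn1a call held without the low-marker libraries (-0.44, edgeR adjusted p = 0.057, and 0.31, 0.13). That setting also ended the calls of Gdf15 (-1.44, edgeR adjusted p = 0.060), Plk2 (0.41, 0.10) and Sesn1 (-0.38, 0.052) in HPV-negative colonies and of Ei24 in SCCVII colonies (-0.35, 0.075). It moved Apaf1 to -0.43, Ccng1 to 0.31, Dcxr to -0.97, Plk3 to -1.16 and Polk from 1.95 to 1.14 in HPV-negative colonies, and Aen from 0.82 to 0.53 and Rps27l from 0.73 to 0.48 in SCCVII colonies, with their calls kept.

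Of the 18 other targets tested, 8 rose and 3 fell in HPV-negative colonies, near the share of all genes called (62.7%, with 34.0% higher and 28.7% lower). In SCCVII colonies 13 rose and 3 fell, beside 51.9% of all genes called (29.7% higher, 22.3% lower). Mdm2 rose in colonies of both models, by 3.71 ± 0.45 and 1.5 ± 0.44, and Trp53 changed by -0.70 ± 0.15 and -0.61 ± 0.17. Single libraries also ended some colony calls of members. In HPV-negative MEER these were Aen without macrophage replicate 1 (edgeR adjusted p = 0.066) or 2 (0.088), Cdkn1a without colony 2 (0.069) or 3 (0.061) and Plk2 without macrophage replicate 1 (0.055). Without SCCVII colony 1 the calls of Bbc3 (0.066), Ei24 (0.12), Gdf15 (0.053) and Tigar (0.30, adjusted p = 0.26, from 0.70) were lost. Without SCCVII colony 2, which leaves 1 library of that group, those of Ccng1 (0.070), Cdkn1a (0.32, adjusted p = 0.36), Ei24 (0.16), Ercc5 (0.095), Gdf15 (0.13) and Xpc (0.088) were lost, and Aen moved to 0.54 (0.017). Leaving out 1 SCCVII macrophage library ended calls of Cdkn1a (replicates 2 and 3, 0.084 and 0.077), Ei24 (replicates 1, 2 and 3, 0.093, 0.10 and 0.11), Gdf15 (replicates 2 and 3, 0.093 and 0.084), Tigar (replicates 1 and 2, 0.058 and 0.080) and Xpc (replicates 2 and 3, 0.066 and 0.067).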

How the data were processed

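The authors deposited 2 tables of expected counts and TPM per Ensembl gene, for 20 libraries and for the 3 HPV-negative colony libraries; expected counts need not be whole, and 13.1% were not. The deposited TPM divide counts by transcript length and depth. Libraries were stranded mRNA (TruSeq), per the labels' protocols. Per the submitters' processing notes, RSEM 1.3.0, STAR 2.5.3a, MultiQC and FastQC were used with mm10/GRCm38; tool order, annotation and strand setting are not stated there. Identifiers were matched to GENCODE M21 symbols for 95.8% of genes.

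Rounded counts went into edgeR 4.0.16 under R 4.3.3 (glmQLFit and glmQLFTest, the quasi-likelihood method), after TMM scaling and filterByExpr (minimum count 10, minimum total 15), adjusted by Benjamini-Hochberg over all genes tested at 0.05. The 9 lines, the 9 macrophage libraries, the 11 colony and macrophage libraries and the 18 macrophage and line libraries each shared a fit. The test itself gives no SE. Each SE of a log2 change was taken as its absolute value over the square root of the F statistic. Alternatives were DESeq2 1.42.0, RLE size factors, no low-count filter, all 23 libraries in 1 fit, the replicate number as a block and leaving out each library. Every replicate pair differed by more than sampling noise (chi-square per gene of at least 3.23).

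On simulated counts with 50 genes changed at each of 1.5, 2, 4 and 8-fold, the fit called 7, 40, 50 and 50 for HPV status in lines (14083 genes), 13, 50, 50 and 50 in macrophages (13845 genes), and 1, 5, 37 and 50 for HPV-negative colonies against macrophages (15617 genes). Unchanged genes called were 4, 9 and 3. Every simulated gene had the same coefficient of variation (18.1%, 16% and 40.2%), and only genes with a mean over 50 counts were changed, all upward. Real genes and groups differ in spread, so these shares do not measure the power of the real comparisons.

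The members and lists were chosen with earlier results of these data known. Values of every library are given for members called between the MEER lines with separate groups and at least 1 CPM in the higher group, up to 3 per role, and for those against the majority. In other comparisons up to 4 rises and 4 falls were taken by the same filter. From the other lists the rule takes Mdm2, Trp53 and up to 3 genes each way; members beyond these were added after their values were seen.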

Additional observations from a re-analysis of the deposited data

Results flagged for a closer look

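For 21 members the change from HPV-negative to HPV-positive MEER differed between the cultured lines and the sorted macrophages (interaction term of edgeR, adjusted p under 0.05, 18 libraries); values below are the log2 change in lines minus that in macrophages. Opposite calls lay behind the differences of Gdf15 (-6.13), Plk2 (-4.45), Btg2 (-3.78), Cdkn1a (-3.27), Sesn2 (-2.03) and Apaf1 (-0.94), which fell in lines and rose in macrophages. Pmaip1 (-2.90) rose in macrophages and was not called in lines, and Sesn1 (1.97) fell in macrophages and was not called in lines. Fas (-2.21) and Aen (-0.74) fell in both and by more in lines, and Plk3 (-1.24) rose in both and by less in lines. Genes that fell in lines without a call in macrophages were Ccng1 (-1.37), Zmat3 (-1.22), Ercc5 (-1.16), Polk (-1.07), Ei24 (-1.06), Trp53inp1 (-0.99), Bax (-0.92) and Rps27l (-0.90). Ddb2 (1.26) rose in lines only, by the same tests, and Fdxr (-0.69) was called in neither kind of sample alone.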

How the results depend on the processing

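Members under 1 CPM, such as Gdf15 in the HPV-positive line, rest on few counts. With all 23 libraries in 1 fit, HPV-positive against HPV-negative macrophages gave 10 members called (7 higher, 3 lower) instead of 16 and 3708 genes in all instead of 6853, and SCCVII against HPV-negative macrophages gave 2944 genes instead of 5527; the cause was not tested. Without the 3 low-marker colony libraries Bax in HPV-negative colonies went from -0.36, not called, to 0.29 (edgeR adjusted p = 0.022). On leaving out 1 library, members called ranged from 23 to 26 for HPV status in lines and from 12 to 16 in macrophages. All genes called ranged from 5732 to 6863 and from 5774 to 7397 there. In HPV-negative colonies the ranges were 18 to 25 members and 8479 to 11739 genes. For the difference between lines and macrophages they were 20 to 23 members and 5823 to 6570 genes. The r of same-numbered libraries ran from -0.207 to 0.213 and was over 0.1 in 6 of 28 pairs. Between HPV-positive and HPV-negative macrophages it was 0.151 and 0.114, against at most -0.02 and 0.023 for other numbers. For replicate 1 of SCCVII against HPV-negative macrophages the order was reversed (-0.041 against 0.083). With the replicate block 23 members were called between the MEER lines (3 higher, 20 lower) and 15 between their macrophages (9 and 6). All genes called were 6268 and 6933 there, instead of 6773 and 6853. The block gave 17 and 18 members in HPV-negative and SCCVII colonies and 23 for the difference. All genes called were 8174, 7249 and 6180, instead of 10178, 8431 and 6497. For SCCVII against HPV-negative and HPV-positive macrophages the block gave 16 and 19 members, instead of 13 and 16. All genes called there rose from 5527 to 5873 and from 8901 to 9663. Over 4309 alternatives to single-gene changes, 4090 kept their side of the threshold (103 of these changed sign while called in neither setting), 147 lost the call, 71 gained it and 1, that of Bax, turned with a call. Scaling by RLE or DESeq2 moved the median of all genes by less than 0.1, the most for the difference between lines and macrophages (0.03, and -0.04 with DESeq2).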

Other observations

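HPV-negative colonies carried some p53 pathway genes, such as Mdm2, Perp and Zfp365, at levels between those of sorted macrophages and of the HPV-negative line. Others lay outside that range. By mean CPM, Cdkn1a (134, against 234 in macrophages and 362 in the line) and Plk3 (24.1, against 82.3 and 50.1) were below both. Fas (13.4, against 5.93 and 5.72) and Ddb2 (14.7, against 7.06 and 4.59) were above both. Mdm2 was at 1340, 2450 and 1990 CPM in the 3 HPV-negative colonies, against 85.7 to 232 CPM in macrophages of that model and 2760 to 4050 CPM in the line, and at 146 and 306 CPM in SCCVII colonies. Perp, at 77.0, 144 and 204 CPM, and Zfp365, at 20.1, 41.8 and 44.3 CPM, followed the same order. Trp63, at 17.9, 39.4 and 52.2 CPM, exceeded both the line (0.856 to 6.39 CPM) and the macrophages (0 to 0.0895 CPM). HPV-negative macrophage replicate 4, which stood apart for Phlda3 and Eda2r, was also the highest macrophage library for Mdm2 (232 CPM) and Perp (11.7 CPM).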
